A study of Mus musculus with 2 samples.

Results

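Described here are 10 genes of iron handling and oxidative defence, Hmox1, Fth1, Ftl1, Slc40a1, Tfrc, Slc11a1, Slc7a11, Gpx4, Nfe2l2 and Txnrd1, in leukocytes sorted from mouse liver tumours. They were chosen by name for what they do, with no measured value in the rule but with earlier results of these data known. All 10 were found among the 32285 genes of the tables. Live CD45+ cells were profiled by droplet single-cell RNA-seq (10x Genomics 3′ v3 chemistry), which counts unique molecular identifiers (UMIs), each standing for a captured RNA molecule. Of the 2 libraries, the AKK library came from C57BL/6 mice fed 5e9 colony-forming units of Akkermansia muciniphila, a mucin-degrading gut bacterium, and the PBS library from mice given phosphate-buffered saline by the same route. Feeding started 2 weeks ahead of a methionine- and choline-deficient (MCD) diet, went on through the 2 weeks of diet that preceded tumour implantation, and was paused for 6 days after surgery. All the mice ate that diet, which gives a fatty liver, and all carried RIL-175, a luciferase-labelled mouse hepatocellular carcinoma line placed in the liver, so the tumours descend from a single line. How many mice were pooled into each library is not stated, nor is their age.

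There was 1 library per group, so nothing could be tested between the groups. Values stand side by side. The words "higher" and "lower" are used of the 2 libraries and not of the treatments, and each 95% interval holds counting error alone, without the spread between animals.

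Iron that reaches a phagocyte in haem is freed by haem oxygenase 1 (Hmox1) and is then either stored in ferritin, a shell of heavy (Fth1) and light (Ftl1) chains, or exported by ferroportin (Slc40a1). Transferrin receptor 1 (Tfrc) imports iron bound to transferrin, and Slc11a1 (Nramp1) moves divalent metal out of the phagosome. Free ferrous iron promotes peroxidation of membrane lipids, which glutathione peroxidase 4 (Gpx4) reverses with glutathione made from the cystine that Slc7a11 imports. Nfe2l2 encodes NRF2, a transcription factor that drives many of these genes under oxidative stress, and Txnrd1, thioredoxin reductase 1, is among its targets. In tumours, macrophages are known for recycling iron from red cells, and neutrophils for a burst of oxidants made by their own NADPH oxidase.

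Of the 10 genes, 4 carry iron-responsive elements, the RNA hairpins that iron regulatory proteins bind when iron is scarce. Bound in a 5′ untranslated region (UTR), the proteins block translation. Bound in the 3′ UTR of Tfrc they protect the RNA from decay. For Fth1, Ftl1 and Slc40a1 the RNA counted here need not follow the protein. The elements are shown because they mark the members that are known to be regulated after transcription by iron. A search of the annotated UTRs on the coding strand for the loop motif CNNNNNCAGTGN, closed by 5 paired bases, found 1 site in each of those 3 genes and 4 in the 3′ UTR of Tfrc. Capitals mark the 6-base loop, and coordinates are GRCm38 with GENCODE release M21 annotation.
Fth1, 5′ UTR, chr19:9982732-9982761, + strand: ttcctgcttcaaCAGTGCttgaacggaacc
Ftl1, 5′ UTR, chr7:45459778-45459807, - strand: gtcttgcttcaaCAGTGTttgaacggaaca
Slc40a1, 5′ UTR, chr1:45925464-45925493, - strand: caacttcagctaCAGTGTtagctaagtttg
Tfrc, 3′ UTR, chr16:32631219-32631248, + strand: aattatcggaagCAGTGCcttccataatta
Tfrc, 3′ UTR, chr16:32631598-32631627, + strand: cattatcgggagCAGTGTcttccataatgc
Tfrc, 3′ UTR, chr16:32631663-32631692, + strand: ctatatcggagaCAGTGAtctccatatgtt
Tfrc, 3′ UTR, chr16:32631710-32631739, + strand: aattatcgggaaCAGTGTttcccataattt
The same search matched 0.148% of 20899 genes in the 5′ UTR and 0.614% of 21022 genes in the 3′ UTR, and it found no match in the UTRs of the other 6 members. A match is a description of the letters and was not tested as a site.

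After filtering, 6172 AKK and 4638 PBS cells remained, with 67697651 and 60224862 UMIs and medians of 6367.5 and 6747 UMIs per cell. Clusters were named "X-like" from marker genes, and 7 classes had at least 100 cells in each library. These were neutrophil-like (2455 AKK and 1995 PBS cells), macrophage-like (428 and 555) and classical monocyte-like cells (546 and 404). The others were T-like (886 and 456), NK/ILC1-like (532 and 280), B-like (287 and 163) and tumour/epithelial-like (115 and 159). The tumour/epithelial-like cells had 44.5 and 30.9 CPM (UMIs per 1e6 UMIs of the class) of Ptprc, which encodes CD45, the marker of the sort, against 1448 and 1162 CPM in neutrophil-like cells. Erythroid markers were at or near 0 in every one of these classes, at most 1.41 CPM summed over 6 genes. Neutrophil-like cells were shallow, with medians of 4114 and 4866 UMIs, against 12346.5 and 17253 in macrophage-like cells.

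The members were unevenly spread over the cell classes, and the spread over classes was far larger than the difference between the libraries. Slc7a11, the cystine importer, was a neutrophil gene here. Neutrophil-like cells had 3609 CPM (3573 to 3645) in AKK and 2948 CPM (2915 to 2981) in PBS, against 900 and 849 CPM in macrophage-like cells, the next class in both libraries. Neutrophil-like cells gave 75.4% of the AKK and 65.1% of the PBS UMIs of Slc7a11, but 15.6% and 17.7% of all UMIs. At an equal depth of 821 UMIs per cell, 81.1% of AKK and 78.1% of PBS neutrophil-like cells had a UMI of Slc7a11, against 43.8% and 38.5% of macrophage-like cells and 2.26% and 2.44% of T-like cells. Without thinning, those shares were 93.8% and 94.5% in neutrophil-like cells and 19.3% and 19.96% in the deeper T-like cells (medians of 8884.5 and 9439.5 UMIs). The T-like level was 27.2 and 22.6 CPM. RNA of other cell types, as traced by their markers, could have carried 52.2 and 46.9 CPM into that class, more than was counted. The part of that RNA in the T-like level was not tested.

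**Figure D1:**
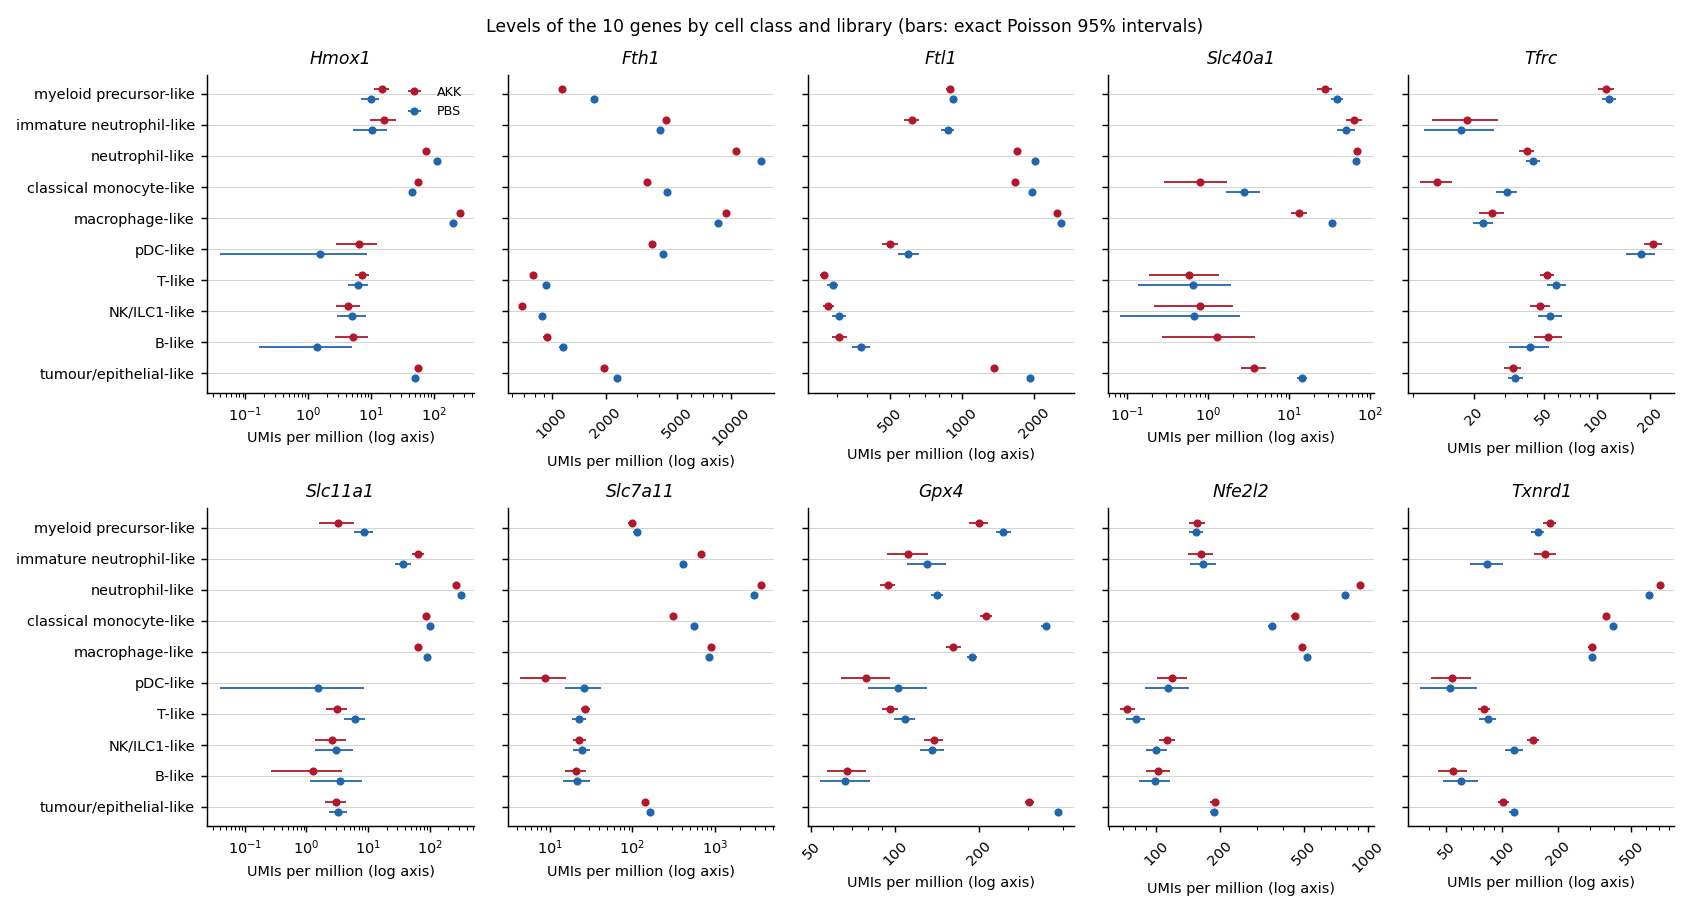
Level of each of the 10 genes (UMIs per 1e6 of the class, log axis) in 10 cell classes (rows) in the AKK (red) and PBS (blue) libraries, with exact Poisson 95% intervals; levels of 0 are not drawn. Slc7a11, Slc11a1, Nfe2l2 and Txnrd1 peak in neutrophil-like cells and Hmox1 in macrophage-like cells, whereas Tfrc peaks in pDC-like cells.

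The same gene was low in the least mature myeloid cells. Slc7a11 stood at 98.6 CPM in AKK and 112 CPM in PBS among myeloid precursor-like cells (71 and 91 cells, with Mpo, Elane and Prtn3). It stood at 672 and 411 CPM among immature neutrophil-like cells (117 and 84 cells, with Camp, Ngp and Ltf). Neutrophil-like cluster 17, the only cluster of that class that still had Ngp, Camp and Ltf among its leading genes, had 1387 and 991 CPM. The other 5 neutrophil-like clusters compared had between 3259 and 5631 CPM in AKK and between 2447 and 4326 CPM in PBS. Slc11a1 followed the same order, with 3.26 and 8.61 CPM in precursors, 64.5 and 37.3 CPM in immature neutrophil-like cells and 264 and 318 CPM in neutrophil-like cells. Tfrc was highest in precursors, at 113 and 117 CPM. Immature neutrophil-like cells had 18.3 and 16.9 CPM and neutrophil-like cells as a class 39.9 and 43.4 CPM. The neutrophil-like clusters ranged widely, from 4.19 and 8.63 CPM in cluster 17 (2 and 9 UMIs) to 112 and 138 CPM in cluster 5. Cluster 1 had 23.0 and 14.7 CPM. Cluster 5 gave 166 of the 423 AKK and 262 of the 463 PBS Tfrc UMIs of the class. Gpx4 was also highest in precursors, with 199 and 244 CPM, against 111 and 130 CPM in immature neutrophil-like cells and 94.1 and 142 CPM in neutrophil-like cells. Clusters are not a time course, and no order in time was measured.

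Nfe2l2 and Txnrd1 were also highest in neutrophil-like cells. Nfe2l2 had 923 CPM in AKK and 780 CPM in PBS there, 491 and 517 CPM in macrophage-like cells and 451 and 353 CPM in classical monocyte-like cells. The intervals of these 3 classes did not overlap within either library. Txnrd1 had 717 and 619 CPM in neutrophil-like cells, 362 and 397 CPM in classical monocyte-like cells and 304 and 308 CPM in macrophage-like cells. Lymphoid classes were lower in both genes than these 3 classes. T-like cells had 73.3 and 80.3 CPM of Nfe2l2 and 79.5 and 83.5 CPM of Txnrd1. NK/ILC1-like cells had 113 and 100.3 CPM of Nfe2l2, and their 147 and 116 CPM of Txnrd1 compared with 102 and 115 CPM in tumour/epithelial-like cells. Both genes have a promoter in the RefSeq table (GRCm38.p6) with the antioxidant response element core TGACNNNGC, the motif to which NRF2 binds, shown here in capitals within the strand of the gene.
Nfe2l2, chr2:75704880-75704913, - strand, motif beginning 240 bases before the start: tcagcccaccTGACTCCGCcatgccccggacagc
Txnrd1, chr10:82859099-82859137, + strand, motif on the opposite strand beginning 92 bases before the start: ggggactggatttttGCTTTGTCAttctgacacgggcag
On either strand the motif matched 12.4% of 32851 promoters of 300 bases, 1 of 1 listed for Nfe2l2 and 1 of 3 for Txnrd1, and none listed for Fth1, Ftl1, Tfrc, Slc11a1, Slc7a11 or Gpx4. The table lists no promoter of Hmox1 or Slc40a1, so these were not searched. No match says only that these letters are not in that window.

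Ferritin was the most abundant product of the set. Fth1 stood at 10669 CPM in AKK and 14869 CPM in PBS in neutrophil-like cells and at 9406 and 8533 CPM in macrophage-like cells, and lymphoid classes had between 683 and 1149 CPM. Ftl1 was highest in macrophage-like cells, with 2493 and 2588 CPM, followed by neutrophil-like cells with 1706 and 2023 CPM and classical monocyte-like cells with 1660 and 1967 CPM, whose intervals overlapped those of the neutrophil-like cells. The heavy-to-light ratio of UMIs was 6.26 and 7.35 in neutrophil-like cells, 3.77 and 3.30 in macrophage-like cells, 2.05 and 2.23 in classical monocyte-like cells and 1.42 and 1.20 in tumour/epithelial-like cells. This ratio is of counted 3′ ends, which do not depend on RNA length, and compares classes rather than giving the make-up of the protein. Together the chains were 1.24% and 1.69% of all UMIs of neutrophil-like cells and 1.19% and 1.11% of those of macrophage-like cells. Reads of the light chain and of its processed copy can be split by the counting, and Ftl1-ps1 held between 0.768% and 2.22% of their joint UMIs in the 7 classes.

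Hmox1 and Slc40a1, the genes of haem breakdown and iron export, had different peaks. Hmox1 was highest in macrophage-like cells at 262 CPM (249 to 275) in AKK and 204 CPM (196 to 213) in PBS. Neutrophil-like cells came next at 74.4 and 111 CPM, followed by tumour/epithelial-like cells at 56.6 and 50.4 CPM and classical monocyte-like cells at 56.3 and 44.7 CPM, which did not differ beyond their intervals. At 821 UMIs per cell, 16.8% and 11.4% of macrophage-like cells had a UMI of Hmox1, against 0.452% and 0.443% of T-like cells. Slc40a1 was highest in neutrophil-like cells at 69.1 CPM (64.2 to 74.3) in AKK and 67.5 CPM (62.6 to 72.6) in PBS. It was followed by immature neutrophil-like cells (63.7 and 50.8), myeloid precursor-like cells (27.2 and 38.9) and macrophage-like cells (13.2 and 34.1 CPM). T-like and NK/ILC1-like cells had at most 0.793 CPM of Slc40a1, which is no more than the 0.985 to 1.44 CPM that RNA of other cells could have brought.

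Tfrc was highest in plasmacytoid dendritic (pDC)-like cells, with 209 CPM (184 to 236) in AKK and 178 CPM (147 to 214) in PBS from 80 and 42 cells. Myeloid precursor-like cells came next with 113 and 117 CPM. Then, in the order of AKK, came cDC2-like (53.6 and 43.6 CPM), B-like (53.0 and 41.5 CPM), T-like (52.1 and 58.9 CPM) and NK/ILC1-like cells (47.4 and 54.2 CPM). In PBS the order was T-like, NK/ILC1-like, cDC1-like (44.4 CPM), cDC2-like, neutrophil-like (43.4 CPM) and B-like cells. The intervals of these classes each overlapped that of the next class below in both libraries. Among the lower classes, tumour/epithelial-like cells (33.3 CPM) lay above macrophage-like cells (25.3 CPM) in AKK with intervals that did not overlap, and the other neighbours overlapped in both libraries. Classical monocyte-like cells were the lowest of the 7 compared classes in AKK, at 12.3 CPM, and macrophage-like cells in PBS, at 22.6 CPM. Slc11a1, in contrast, was a phagocyte gene, with 264 and 318 CPM in neutrophil-like, 88.4 and 100.3 CPM in classical monocyte-like and 63.9 and 89.6 CPM in macrophage-like cells. It had at most 6.09 CPM in the 4 other compared classes. Gpx4 was highest among the compared classes in tumour/epithelial-like cells, with 303 and 385 CPM, and in classical monocyte-like cells, with 212 and 346 CPM. Neutrophil-like cells, with 94.1 and 142 CPM, were below macrophage-like cells, with 162 and 189 CPM.

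Between the libraries, genes with at least 50 UMIs in both libraries together were compared in each class. A difference past 1.5-fold, an AKK over PBS ratio of at least 1.5 or at most 1 over 1.5, was counted. No measured member was past 1.5-fold higher in AKK in any of the 7 classes, while 5 members were past it lower in some class. In neutrophil-like cells 0 of 10 measured members were higher and 1, Gpx4, was lower, against 9.21% of 10141 genes higher and 4.65% lower. In macrophage-like cells 0 of 10 were higher and 1, Slc40a1, was lower, against 7.81% and 7.49% of 10801 genes. In classical monocyte-like cells 0 of 9 were higher and 3, Tfrc, Slc7a11 and Gpx4, were lower, against 10.8% and 7.83% of 10155 genes. In T-like cells 0 of 9 were higher and 1, Slc11a1, was lower, against 4.42% and 6.5% of 10351 genes. That rests on 27 AKK and 28 PBS UMIs (ratio 0.510, 0.289 to 0.898) and RNA of other cells could carry the whole of the AKK and 79.8% of the PBS level. In tumour/epithelial-like cells 0 of 10 were higher and 1, Slc40a1, was lower, against 7.21% and 3.78% of 11582 genes. In NK/ILC1-like cells 0 of 7 measured members were past 1.5-fold in either direction, against 5.55% of 9051 genes higher and 6.63% lower, and in B-like cells likewise 0 of 7, against 6.85% and 4.03% of 7113 genes. The median log2 ratio of the measured members lay between -0.25 and -0.03 in the 7 classes, and that of all genes between -0.01 and 0.11.

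**Figure D2:**
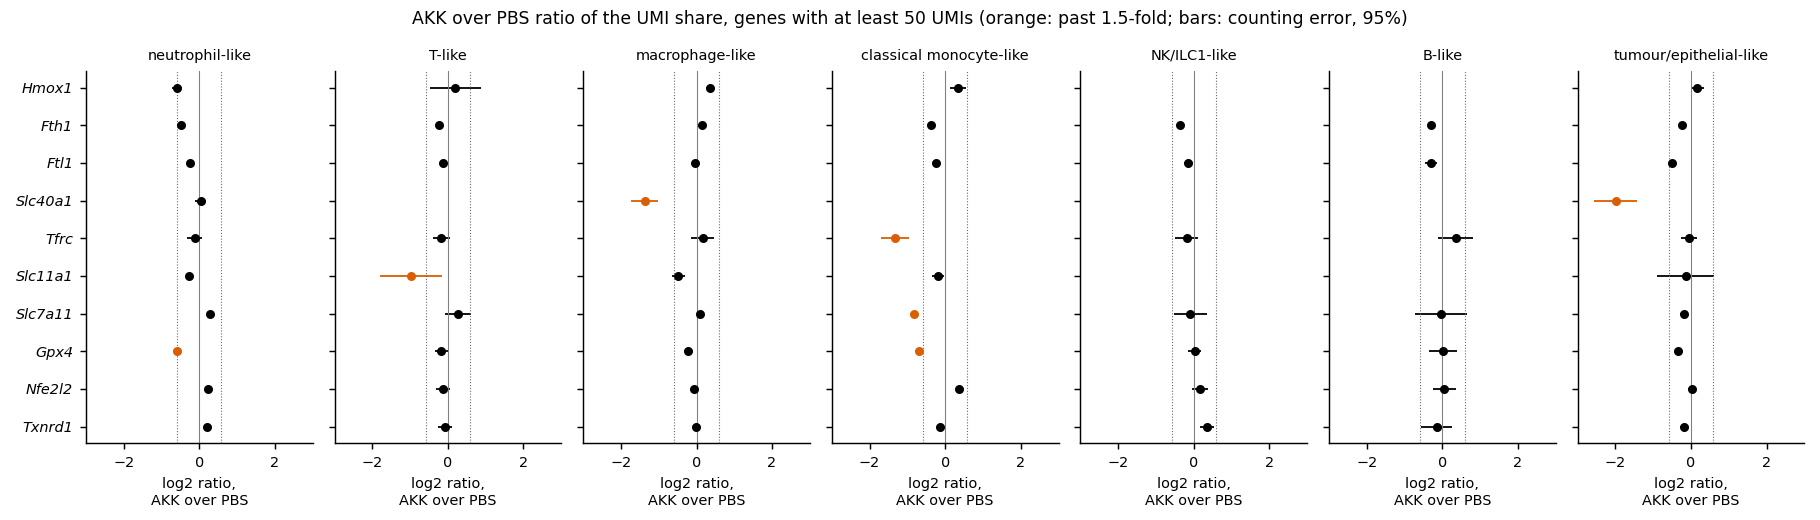
Ratio of the UMI share in AKK over PBS (log2, x axis) for each gene (rows) with at least 50 UMIs in a class (panels), with exact 95% intervals for counting error; dotted lines mark 1.5-fold and orange points lie past it. All orange points lie on the side lower in AKK, and most points of every class lie within 1.5-fold.

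In neutrophil-like cells Hmox1, Fth1, Ftl1, Slc11a1 and Gpx4 were lower in AKK and Slc7a11, Nfe2l2 and Txnrd1 higher, all but Gpx4 within 1.5-fold. Gpx4 had 94.1 CPM in AKK and 142 CPM in PBS (ratio 0.664, 0.613 to 0.720), and it was lower in AKK in all 6 clusters compared, with the interval below 1 in 5. Gpx4 lay just past the threshold and Hmox1 (74.4 and 111 CPM, 0.670, 0.611 to 0.734) just within it. Over 11 alternative settings both stayed lower in AKK, and Gpx4 was past 1.5-fold in 3 and Hmox1 in 7. At 2309 UMIs per cell, 17.3% of AKK and 25.96% of PBS neutrophil-like cells had a UMI of Gpx4, and 29.7% and 44.1% without thinning. Fth1 had a ratio of 0.718 (0.712 to 0.723) and was lower in 6 of 6 clusters, between 0.657 and 0.987, and Slc11a1 had a ratio of 0.831 (0.790 to 0.874) and was lower in 6 of 6. Slc7a11 was 1.22 times as high in AKK (1.21 to 1.24) and higher in 5 of 6 clusters, the exception being cluster 6 at 0.968. Nfe2l2 at 1.18 (1.15 to 1.22) and Txnrd1 at 1.16 (1.12 to 1.20) were also higher, Nfe2l2 in 3 of 6 clusters and Txnrd1 in 5 of 6. For Nfe2l2 the interval lay above 1 only in cluster 1 (1.28, 1.23 to 1.34) and below 1 in clusters 5 (0.875, 0.802 to 0.955) and 7 (0.901, 0.818 to 0.993). Slc40a1 (1.02, 0.923 to 1.14) and Tfrc (0.920, 0.805 to 1.05) did not differ beyond counting error over the class. Their clusters went both ways: Slc40a1 was 2.76 (1.56 to 5.33, from 123 and 13 UMIs) in cluster 7 and 0.758 (0.620 to 0.925) in cluster 5. Tfrc was 1.56 (1.12 to 2.21) in cluster 1 and 0.812 (0.664 to 0.990) in cluster 5, and for both genes the intervals of the 4 remaining clusters held 1. RNA of other cell types traced in neutrophil-like cells could account for 7.72% of the AKK and 8.49% of the PBS level of Gpx4 and for at most 1.62% of the levels of Fth1, Slc11a1, Slc7a11, Nfe2l2 and Txnrd1. The ratio of summed UMIs alone does not tell fewer cells with the RNA from less RNA per cell. For Fth1, 99.6% of AKK and 99.9% of PBS neutrophil-like cells had a UMI at 2309 UMIs per cell, so nearly all cells of both libraries held it.

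**Figure D3:**
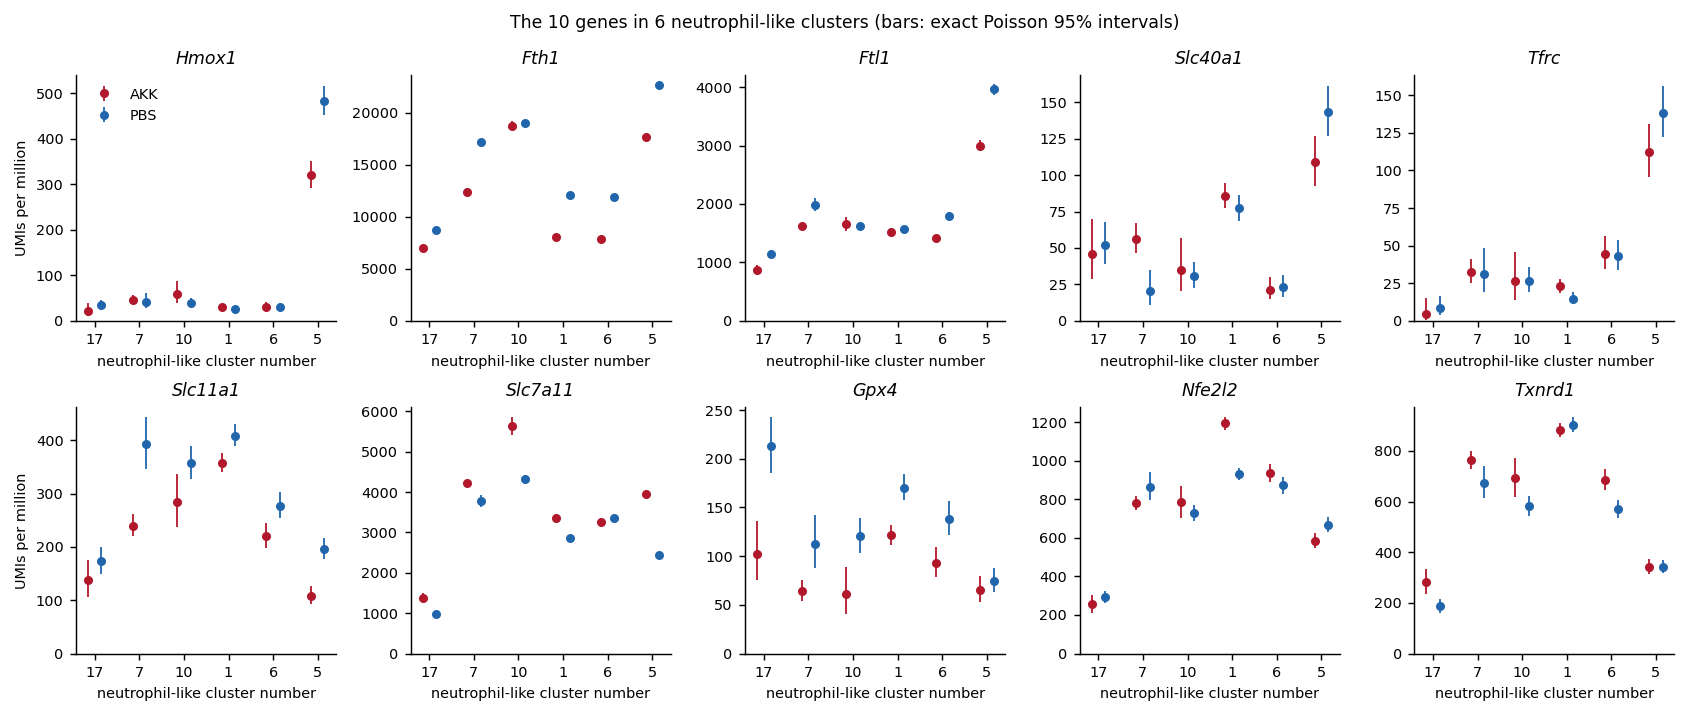
Level of each gene (UMIs per 1e6 of the cluster, y axis from 0) in 6 neutrophil-like clusters (x axis, by number) in AKK (red, left) and PBS (blue, right), with exact Poisson 95% intervals. Cluster 5 stands above the others in Hmox1, Ftl1, Slc40a1 and Tfrc in both libraries, and cluster 17 is lowest in Slc7a11.

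Among neutrophil-like clusters, Hmox1, Ftl1, Slc40a1 and Tfrc had their highest levels in cluster 5. Cluster 5 (373 AKK and 374 PBS cells), led by Cstdc4, Cxcl3, Thbs1, Acod1, Hcar2, Cxcl2, Il1rn and Ccl3, had 320 CPM of Hmox1 in AKK and 483 CPM in PBS. The other 5 clusters had between 20.9 and 59.3 CPM in AKK and between 25.0 and 42.2 CPM in PBS. It gave 473 of the 788 AKK and 916 of the 1185 PBS Hmox1 UMIs of the class. It was also highest in Ftl1 (2997 and 3962 CPM), Slc40a1 (109 and 144 CPM) and Tfrc (112 and 138 CPM). The larger cluster 1, at 85.8 and 77.3 CPM, gave more of the class's Slc40a1 UMIs (376 in AKK and 294 in PBS) than cluster 5 (161 and 272). Cluster 5 was highest in Fth1 in PBS (22635 CPM), whereas in AKK cluster 10 had more Fth1 (18758 CPM, against 17608 CPM in cluster 5). In cluster 5, Nfe2l2 (584 and 667 CPM) and Txnrd1 (343 and 342 CPM) were lower than in clusters 1, 6, 7 and 10. Slc11a1, at 108 CPM in AKK and 196 CPM in PBS, was also lower in cluster 5 than in those clusters. The members were left out of the genes used for clustering, so these levels did not build the cluster. Its AKK over PBS ratio of Hmox1 was 0.662 (0.591 to 0.740), close to the class ratio of 0.670 (0.611 to 0.734), and in the 5 other clusters the interval of the Hmox1 ratio held 1. Cxcr2, a receptor of circulating neutrophils, had 219 and 240 CPM in cluster 5. It had between 429 and 796 CPM in AKK and 457 and 724 CPM in PBS in clusters 1, 6, 7 and 10. It was chosen after its values were seen, as was Mrc1 in macrophages.

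In macrophage-like cells Slc40a1 was the member that differed most, with 13.2 CPM (82 UMIs) in AKK and 34.1 CPM (353 UMIs) in PBS, a ratio of 0.387 (0.3004 to 0.493). Other cells' RNA could carry 13.4% of the AKK and 4.23% of the PBS level. Thinned to 3108 UMIs, 2.17% of AKK and 4.65% of PBS macrophage-like cells had a UMI of it, a difference of -2.48 percentage points whose interval (-4.90 to 0.0717) holds 0, and 5.61% and 12.1% did without thinning. In T-like cells the unthinned shares were 0.564% and 0.658%. A finer clustering at resolution 2.0 placed most of it in cluster 18 (67 AKK and 170 PBS cells), led by Mmp13, C1qa, Apoe and Mrc1. That cluster had 46.8 CPM in AKK (68 UMIs) and 80.1 CPM in PBS (325 UMIs), a ratio of 0.584 (0.443 to 0.761). Cluster 9 (242 and 197 cells), led by Mmp12 and MHC class II genes, had 2.26 and 1.27 CPM. The shallow cluster 26 (64 and 40 cells) had 28.1 and 92.1 CPM from 3 and 11 UMIs, so the level was not particular to cluster 18. In AKK, cluster 18 held fewer cells and the level within it was lower. Within cluster 18 the mannose receptor gene Mrc1 had 766 CPM in AKK and 1459 CPM in PBS, and Spic, a transcription factor gene of iron-recycling macrophages, 5.51 and 16.5 CPM. The 6 Kupffer cell markers summed to 11.9 CPM in AKK and 47.4 CPM in PBS macrophage-like cells, with 6 of 6 lower in AKK and Vsig4 at 0 there. Their part in the Slc40a1 result was not tested.

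**Figure D4:**
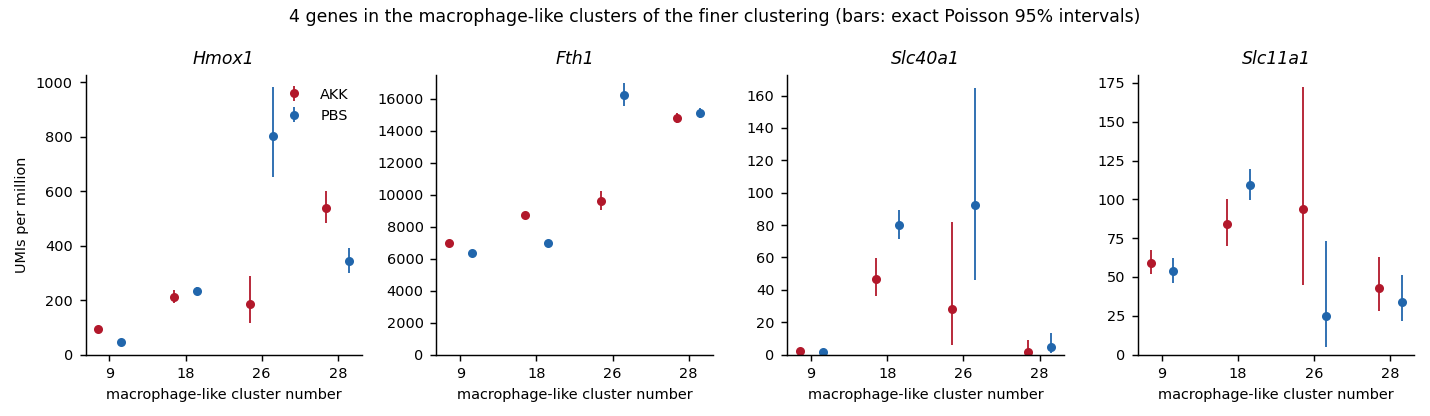
Hmox1, Fth1, Slc40a1 and Slc11a1 (UMIs per 1e6 of the cluster, y axis from 0) in 4 macrophage-like clusters of the finer clustering (x axis) in AKK (red, left) and PBS (blue, right), with exact Poisson 95% intervals. Slc40a1 stands at 46.8 and 80.1 CPM in cluster 18 and at most at 4.45 CPM in clusters 9 and 28. Cluster 26, at 28.1 and 92.1 CPM, is shallow and its intervals are wide.

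Hmox1 ran the other way in macrophage-like cells, 1.28 times as high in AKK (1.20 to 1.37), within 1.5-fold. By cluster it was higher in AKK in cluster 9 (93.2 and 45.5 CPM, ratio 2.05, 1.69 to 2.50) and cluster 28 (538 and 344 CPM, 1.57, 1.32 to 1.86). It was lower in the shallow cluster 26 (187 and 804 CPM, from 20 and 96 UMIs) and 0.911 (0.799 to 1.04) in cluster 18. Fth1 had a ratio of 1.10 (1.09 to 1.11) and Ftl1 of 0.963 (0.944 to 0.983), and each cell's ferritin share of UMIs had a median of 0.985% in AKK and 0.854% in PBS. When scaled so that the median gene did not differ, a shift of 0.11 on the log2 scale, the log2 ratio of Hmox1 was 0.25, that of Fth1 0.03 and that of Slc7a11 -0.02. The directions of the small differences of Fth1 and Slc7a11 are not settled. Slc11a1 was lower in AKK, with 63.9 and 89.6 CPM (0.714, 0.633 to 0.804), but with clusters weighted alike its log2 ratio was 0.63. Within the finer clusters Slc11a1 was lower in AKK in cluster 18 (84.0 and 109 CPM, 0.769, 0.624 to 0.942), and in cluster 9 it had 59.3 and 53.7 CPM (1.10, 0.902 to 1.35).

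Classical monocyte-like cells held the most members past 1.5-fold. Gpx4 had 212 CPM in AKK (1627 UMIs) and 346 CPM in PBS (2371 UMIs), a ratio of 0.613 (0.576 to 0.654). The ratio was 0.616 (0.571 to 0.663) in cluster 3 and 0.623 (0.549 to 0.706) in cluster 24. Thinned to 3480 UMIs, 46.3% of AKK and 69.6% of PBS cells had a UMI of Gpx4, a difference of -23.4 percentage points (-29.6 to -16.8), and 74.5% and 88.9% without thinning. Other cells' RNA could carry 7.87% of that level in AKK and 8.95% in PBS. Slc7a11 had 312 and 548 CPM (0.569, 0.540 to 0.599), but here the 9 neutrophil markers moved with it. They summed to 2974 CPM in AKK and 8945 CPM in PBS, 8 of 9 lower in AKK and none at 0. RNA of neutrophils was traced by S100a8, S100a9 and Retnlg alone. By these the neutrophil share was 4.55% in AKK and 12.2% in PBS, against 1.26% and 1.20% in T-like cells. Expression of these markers by the monocyte-like cells themselves would raise that share and was not told apart. With macrophage and tumour RNA added, RNA of other cells could by this estimate carry 215 of the 312 CPM in AKK and 397 of the 548 CPM in PBS. That is 68.9% and 72.5% of the Slc7a11 level. For Fth1 it could carry 1019 of the 3399 CPM in AKK and 2198 of the 4390 CPM in PBS (ratio 0.774, 0.761 to 0.787). For Nfe2l2 and Hmox1 in this class the corresponding shares were 15.7% and 33.8%, and 32.5% and 50.6%. The part of neutrophil RNA in these differences was not tested beyond those values.

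Tfrc in classical monocyte-like cells had 12.3 CPM in AKK (94 UMIs) and 30.7 CPM in PBS (210 UMIs), a ratio of 0.4002 (0.310 to 0.513). It rests mainly on cluster 24 (47 AKK and 41 PBS cells, led by F13a1, Prtn3, Hist1h2ap and Pclaf), deep cells with a median of 40357 UMIs, where it had 20.9 and 75.0 CPM (0.279, 0.187 to 0.406). The marker score that named cluster 24 was 4.14 for classical monocyte and 3.93 for myeloid precursor. Myeloid precursor-like cells had 113 and 117 CPM of Tfrc. Without that cluster, in cluster 3 (499 and 363 cells), Tfrc had 9.85 and 13.6 CPM (0.727, 0.503 to 1.05), an interval that holds 1. With each cell classed by its own marker score the class log2 ratio was -0.27, against -1.32. Other cells' RNA could carry 29.3% of the AKK and 22.0% of the PBS level of Tfrc. Nfe2l2 was 1.28 times as high in AKK in the class (1.21 to 1.35) and higher in both clusters. Hmox1 was 1.26 times as high (1.09 to 1.46), but the log2 ratio of Hmox1 over the class was -0.36 in the finer clustering. At that resolution the monocyte-like cells split largely by library, with 66 AKK and 287 PBS cells in cluster 13 and 304 and 28 in cluster 14. Cluster 45 held 6 AKK and 42 PBS cells. Its PBS cells had 255 CPM of Hmox1, against 52.4 CPM in the PBS cells of cluster 13, with 7733 CPM of Fth1 and 988 CPM of Slc7a11. The part of cluster 45 in the class ratios was not tested. In cluster 13, the only one that held at least 30 cells of each library, the ratio of Gpx4 was 0.622 (0.533 to 0.723). That of Hmox1 was 2.60 (2.06 to 3.26), and that of Nfe2l2 1.05 (0.938 to 1.18). There Slc7a11 was within 1.5-fold, at 625 and 697 CPM (0.897, 0.817 to 0.983), and Fth1 was higher in AKK, at 4917 and 4542 CPM (1.08, 1.05 to 1.12), against class ratios of 0.569 and 0.774. The median share of mitochondrial UMIs in classical monocyte-like cells was 3.197% in AKK and 4.25% in PBS, and its part in these values was not tested.

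In tumour/epithelial-like cells, which passed the CD45 sort with little Ptprc, Slc40a1 had 3.66 CPM in AKK (33 UMIs) and 14.4 CPM in PBS (171 UMIs), a ratio of 0.254 (0.169 to 0.370). Macrophage and neutrophil RNA could carry 1.30 and 1.64 CPM of that. The 5 hepatocyte markers summed to 1.33 CPM in AKK and 10.1 CPM in PBS, with 3 of 5 lower and 1 higher in AKK, Serpina1c at 0 in both libraries and Apoc3 at 0 in AKK, and their part in the Slc40a1 result was not tested. Ftl1 (0.707, 0.692 to 0.723), Gpx4 (0.787, 0.750 to 0.825) and Fth1 (0.843, 0.827 to 0.859) were also lower in AKK, and Nfe2l2 (1.01, 0.947 to 1.08) did not differ beyond counting error. Hmox1 was 56.6 and 50.4 CPM (1.12, 0.995 to 1.27), but its log2 ratio was -0.58 when each cell was weighted alike.

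In lymphoid classes the measured members were within 1.5-fold, apart from Slc11a1 in T-like cells, given above, which was past it in 10 of 11 alternative settings. Fth1 was lower in AKK in T-like cells (0.847, 0.815 to 0.880), NK/ILC1-like cells (0.774, 0.735 to 0.815) and B-like cells (0.812, 0.762 to 0.866), where RNA from other cells could carry between 21.3% and 36.4% of its level. Txnrd1 was 1.26 times as high in AKK in NK/ILC1-like cells (147 and 116 CPM, 1.11 to 1.44). Tfrc had ratios of 0.884 (0.759 to 1.03) in T-like cells, 0.875 (0.713 to 1.08) in NK/ILC1-like cells and 1.28 (0.931 to 1.77) in B-like cells, all with intervals that hold 1. Over all kept cells, in which the cell classes are mixed in the proportions of each library, Fth1 had a ratio of 0.683, lower than in each of the 7 classes, and Slc40a1 of 0.629, which lay between the 1.02 of neutrophil-like and the 0.387 of macrophage-like cells.

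The other genes of these pathways were followed through 5 lists. The shares of all genes past 1.5-fold, against which the counts are read, were 9.21% higher and 4.65% lower in neutrophil-like cells, 7.81% and 7.49% in macrophage-like cells, and 10.8% and 7.83% in classical monocyte-like cells. In the haem and iron list (30 genes), 2 of 23 measured genes were past 1.5-fold higher in AKK and 2 lower in neutrophil-like cells (median log2 ratio 0.02, all genes 0.08). There were 0 of 24 higher and 5 lower in macrophage-like cells (-0.19, all genes 0.11), and 1 of 22 higher and 3 lower in classical monocyte-like cells (-0.05, all genes 0.08). Lcn2, lipocalin 2, which binds bacterial siderophores and is stored in neutrophil granules, was past 1.5-fold lower in AKK in all 7 classes: neutrophil-like cells had 498 CPM in AKK and 1245 CPM in PBS (0.3998, 0.387 to 0.413). Hp, haptoglobin, which captures free haemoglobin, was past it lower in 5 classes, with 265 and 431 CPM in neutrophil-like cells (0.616, 0.587 to 0.645). In classical monocyte-like cells Hp stood at 283 and 455 CPM and Lcn2 at 143 and 594 CPM. In T-like cells Lcn2 stood at 19.2 and 43.1 CPM, where the 9 neutrophil markers summed to 586 and 908 CPM. The part of neutrophil RNA in those other classes was not tested. In macrophage-like cells the lowest ratios were those of Spic (1.61 and 7.74 CPM, 10 and 80 UMIs, 0.208, 0.0961 to 0.403) and Cp, ceruloplasmin, the ferroxidase that works with ferroportin (1.45 and 5.13 CPM, 0.283, 0.123 to 0.578). Ireb2, an iron regulatory protein, had a ratio of 1.42 (1.23 to 1.64) in that class.

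In the list of NRF2 regulators and targets (22 genes), 0 of 20 measured genes in neutrophil-like cells were past 1.5-fold in either direction (median log2 ratio -0.02). There were 2 of 20 higher and 0 lower in macrophage-like cells (0.16), and 0 of 20 higher and 1 lower in classical monocyte-like cells (-0.07). The medians of all genes were 0.08, 0.11 and 0.08 in these classes, and 2 of 20 is near the 7.81% of all genes higher in macrophage-like cells. The 2 in macrophage-like cells were Prdx1, a peroxiredoxin (641 CPM in AKK and 370 CPM in PBS, 1.73, 1.66 to 1.81), and Gclm, the modifier subunit of the enzyme that starts glutathione synthesis (27.9 and 16.3 CPM, 1.70, 1.37 to 2.12). The 1 in classical monocyte-like cells was Abcc1, an exporter of glutathione conjugates (72.7 and 135 CPM, 0.538, 0.484 to 0.599). In tumour/epithelial-like cells Gclc, the catalytic subunit of that same enzyme, had 67.8 and 123 CPM (0.551, 0.500 to 0.606), and it was the 1 of 21 genes past 1.5-fold lower, with 0 higher, against 3.78% of all genes lower and 7.21% higher.

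In the glutathione and lipid peroxidation list (19 genes), 1 of 17 genes was higher and 0 lower in neutrophil-like cells, 2 higher and 2 lower in macrophage-like cells and 0 higher and 3 lower in classical monocyte-like cells, against the same shares of all genes (9.21% and 4.65%, 7.81% and 7.49%, 10.8% and 7.83%). The median log2 ratio of the list was 0.00 among neutrophil-like cells, 0.06 among macrophage-like cells and -0.19 among classical monocyte-like cells, against 0.08, 0.11 and 0.08 for all genes. Gpx3, the secreted glutathione peroxidase, had 9.66 and 22.3 CPM in macrophage-like cells (0.432, 0.320 to 0.577) and 15.3 and 26.7 CPM in classical monocyte-like cells (0.572, 0.449 to 0.725). Alox5, which makes leukotriene precursors, had 26 and 89 UMIs in classical monocyte-like cells (0.261, 0.162 to 0.408). In the thioredoxin, peroxiredoxin and dismutase list (17 genes), Selenop, a selenium carrier, had 71.5 and 208 CPM in macrophage-like cells (0.344, 0.310 to 0.381), the only 1 of 16 lower there with 0 higher, against 7.49% and 7.81% of all genes. Cat, catalase, had 39.8 and 23.1 CPM in classical monocyte-like cells (1.73, 1.42 to 2.10), and Sod2, the mitochondrial superoxide dismutase, 153 and 251 CPM (0.610, 0.566 to 0.657). The 6 genes of the phagocyte NADPH oxidase list were all within 1.5-fold in neutrophil-like, macrophage-like and classical monocyte-like cells. Its catalytic subunit Cybb had 157 and 189 CPM in neutrophil-like cells (0.830, 0.777 to 0.886) and 821 and 1091 CPM in macrophage-like cells (0.752, 0.728 to 0.778).

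Over the 14 values of the 7 classes in 2 libraries, the genes most like a member were found by Pearson correlation of log2(CPM + 10) among 6672 genes, as a description. The values share libraries and class depths. Slc7a11 was most like Gabarap (r = 0.99), Ifitm1 (0.99) and Fth1 (0.98), so that another member was among its 3 nearest. Slc11a1 was most like Ptafr (0.996), Tlr13 (0.994) and Trem1 (0.994), Nfe2l2 like Hlx, Gabarap and Il13ra1, and Txnrd1 like Ptpre, Snx10 and Ninj1. Ftl1 was most like Wdfy3, Prdx5 and Plin2, each at 0.98, and Hmox1 like Sel1l, Klf7 and Ralb, each at 0.96. Tfrc had the least similar neighbours, Zeb1, Cul3 and Slc7a6os, each at 0.89, and it correlated with Hmox1 at -0.675 and with Fth1 at -0.545. Gpx4 was most like Clic1 (0.96), Akt1 (0.94) and Lrp5 (0.93), Slc40a1 like Csta2, F3 and Egr1, each at 0.95, and Fth1 like Ifitm1, Slc7a11 and Creb5, each at 0.98.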

How the data were processed

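The deposited files are raw UMI counts per gene and barcode, and Cell Ranger 7.1.0 wrote them, per the file headers. Version 5.0.1 and the mm10 genome stand in the submitters' processing notes. No source used here gives the annotation release or the intron setting, and both can change counts, as can processed copies of Fth1, Ftl1 and Gpx4 that share reads with them. The libraries held 6610 AKK and 5088 PBS barcodes with 74495998 and 64731604 UMIs, the lowest barcode at 501 and 500, and 8 of 11698 barcodes occurred in both.

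Cells with at least 200 genes and under 15% mitochondrial UMIs were kept, removing 93 and 255. Scrublet's automatic threshold marked 1.01% and 0.0786% of cells, the second too few to have worked, so the highest scores were removed instead at 0.8% per 1000 barcodes (345 and 195 cells). Clusters came from scanpy 1.11.5 (2000 variable genes without the members and pathway genes, 30 components, 15 neighbours, Leiden resolution 1.0), and their names from fixed markers, so names and shares of cells are rebuilt here. UMIs were summed per class and library and given as CPM with exact Poisson 95% intervals; ratios of AKK over PBS have exact conditional binomial 95% intervals, and shares of cells exact binomial ones. A class was compared where each of the libraries gave it 100 cells or more. Intervals cover counting error only, since each group has 1 library. The possible RNA of other cells was set from the median relative level of their markers in a class. These were S100a8, S100a9 and Retnlg (neutrophil), C1qa, C1qb and C1qc (macrophage) and Krt8, Krt18 and Krt19 (tumour). Expression of these markers by the class itself would raise the estimate. Shares of cells were compared after thinning each cell to an equal number of UMIs. The ratio and its interval were run on simulated counts drawn from the counting model that the interval assumes. Those counts had no spread between cells or animals, so the run cannot tell how the interval holds under such spread. Of each pathway list the 2 highest and 2 lowest ratios per class could be named, with any gene past 1.5-fold in the same direction in at least 3 classes. The members and lists were chosen with earlier results of these data known. Other versions were numpy 2.4.6, scipy 1.17.1 and Python 3.11.15.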

Additional observations from a re-analysis of the deposited data

Results flagged for a closer look

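For 5 members the AKK over PBS ratio lay above 1 in some classes and below 1 in others, each with an interval that excludes 1. In each case the difference between the classes was not tested. Hmox1 had a ratio of 0.670 in neutrophil-like cells, 1.28 in macrophage-like cells and 1.26 in classical monocyte-like cells. With cells thinned to equal depth, its shares of cells with a UMI differed by -1.98 percentage points (-4.03 to 0.0400) in neutrophil-like cells. They differed by 3.96 (-2.12 to 10.1) in macrophage-like and 3.175 (-1.42 to 7.60) in classical monocyte-like cells, and all these intervals hold 0. In the finer clustering its log2 ratio in classical monocyte-like cells was -0.36. Fth1 had a ratio of 1.10 in macrophage-like cells and lay below 1 elsewhere, at 0.718 in neutrophil-like, 0.847 in T-like, 0.774 in classical monocyte-like, 0.774 in NK/ILC1-like, 0.812 in B-like and 0.843 in tumour/epithelial-like cells. The direction of Fth1 in macrophage-like cells is not settled, with the same sign in 10 of 11 alternative settings. Slc7a11 had 1.22 in neutrophil-like and 1.06 in macrophage-like cells, and 0.569 in classical monocyte-like and 0.880 in tumour/epithelial-like cells. Its direction in macrophage-like cells is not settled, with the same sign in 6 of 11 alternative settings. At equal depth the Slc7a11 shares differed by 0.633 points (-0.992 to 2.29) in neutrophil-like and -22.6 (-28.8 to -16.0) in classical monocyte-like cells. Thinning does not remove RNA of other cells, which could by the marker estimate carry 68.9% of the AKK and 72.5% of the PBS monocyte-like level. In finer cluster 13 the Slc7a11 ratio was 0.897. Nfe2l2 had 1.18 in neutrophil-like and 1.28 in classical monocyte-like cells, and 0.9501 in macrophage-like cells. In the same order, its shares at equal depth differed by 1.86 (-0.823 to 4.57), 3.71 (-2.28 to 9.77) and 1.58 points (-4.68 to 7.71). These intervals hold 0. Txnrd1 had 1.16 in neutrophil-like and 1.26 in NK/ILC1-like cells, and 0.913 in classical monocyte-like and 0.881 in tumour/epithelial-like cells. In the same order, its shares at equal depth differed by 2.34 (-0.618 to 5.30), 6.14 (-1.39 to 13.4), -7 (-13.1 to -0.704) and 2.72 points (-4.22 to 10.6). Only the classical monocyte-like interval excludes 0. The depth was equal within a class only, at 2309, 4919, 3480 and 821 UMIs. At 821 UMIs 9.71% of AKK and 6.99% of PBS tumour/epithelial-like cells had a UMI of Txnrd1, against 78.3% and 76.1% without thinning. That last difference can therefore show little about the ratio of 0.881.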

How the results depend on the processing

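Each ratio was recomputed under 11 alternatives. Slc40a1 in macrophage-like and in tumour/epithelial-like cells, and Slc7a11 and Gpx4 in classical monocyte-like cells, were past 1.5-fold lower in AKK in 11 of 11, and Tfrc in classical monocyte-like cells in 10 of 11. Within the 1 finer monocyte-like cluster with at least 30 cells of each library, the Slc7a11 ratio was 0.897, within 1.5-fold. In macrophage-like cells Slc7a11 kept its direction in 6 of 11, Txnrd1 in 7 and Hmox1 in 10, with a log2 ratio of -1.21 for Hmox1 when clusters were weighted alike.

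The number of members past 1.5-fold in neutrophil-like cells, 1 as reported, was 0 with at least 500 genes per cell, 0 with no doublets removed and 0 with each cell weighted alike, and 2 under either other scaling (without the 50 most abundant genes, or by the median ratio). It was 0 in T-like cells with no doublets removed, 1 in B-like cells with no doublets removed and 1 with cells classed by their own markers, and in macrophage-like cells 2 when scaled by the median ratio and 3 with clusters weighted alike. The cause was not tested.

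With a floor of 200 UMIs, the share of all genes higher in AKK past 1.5-fold was 5.06% in neutrophil-like, 2.09% in T-like, 4.69% in macrophage-like, 3.48% in NK/ILC1-like, 2.58% in B-like and 4.16% in tumour/epithelial-like cells, and the share lower was 2.85% in neutrophil-like, 3.17% in T-like, 3.59% in NK/ILC1-like, 1.57% in B-like and 2.02% in tumour/epithelial-like cells. With a floor of 20 UMIs, the share lower was 7.11% in neutrophil-like, 10.1% in T-like, 10.02% in NK/ILC1-like, 6.97% in B-like and 6.26% in tumour/epithelial-like cells, and the share higher 10.9% in B-like cells. Fewer counts per gene widen the ratios by construction.

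Without thinning, the difference in the share of cells with a UMI was -1.95 percentage points for Ftl1 in classical monocyte-like cells (6.47 when thinned) and 0.282 for Fth1 in NK/ILC1-like cells (-4.10 when thinned). Depth limits Hmox1, Slc40a1 and Slc11a1 in NK/ILC1-like and B-like cells, where each had under 50 UMIs. No paired analysis was possible because each group has 1 library.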

Other observations

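The clusters left unnamed held 36 AKK and 169 PBS cells with 40086 and 143417 UMIs. In them Fth1 had 4440 CPM in AKK and 5376 CPM in PBS, and Slc7a11 1447 and 1952 CPM. Slc40a1 rests there on 2 and 3 UMIs.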
